A study of Rattus norvegicus with 18 samples.

Results

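The mRNA levels of DNA repair genes were followed in rat bone marrow mesenchymal stromal cells (MSCs) during long-term culture. The list holds 49 genes of mismatch, base excision, nucleotide excision and direct repair, end joining, homologous recombination, the Fanconi anemia pathway and the damage checkpoint. The members were the probes of the array whose gene symbol is on this list. A named probe was found for 32 of the 49 genes, and 28 of them were detected in at least 1 group and tested, among 9531 tested genes of 22018 on the array. Probes for Ogg1, Ercc6, Xrcc4 and Atm were not detected in any group and carry no comparison. Msh3, Msh6, Polb, Lig3, Ddb2, Ercc2, Ercc4, Ercc5, Prkdc, Brca1, Brca2, Rad54l, Blm, Wrn, Fancd2, Fancg and Atr had no named probe and were not analysed here.

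MSCs came from male Sprague-Dawley rats of 3 weeks (young donors, yMSCs) or 12 months (aged donors, aMSCs), were selected by their adherence to plastic, and were cultured in expansion medium with no other treatment. RNA was taken at passage 2 (P2), 30 (P30) and 100 (P100), and 3 arrays were hybridized for each of the 6 groups, 18 arrays in all. No sort of the cells is described, and it is not given in the sources used here whether the 3 arrays of a group came from separate animals or cultures, so the p-values measure the spread between these arrays, which may be technical. The study speaks of its long-term cultures as a pair, and if each donor age had a single line, donor age and culture line cannot be told apart at P30 and P100. Each level below is a log2 intensity after background correction and quantile normalization, and a difference of 1 is a 2-fold change.

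Cells keep their genome intact with several repair systems that differ in the damage they read. Mismatch repair corrects copying errors behind the replication fork, base excision repair removes single damaged bases and mends nicks, and nucleotide excision repair cuts out bulky lesions such as those made by ultraviolet light. Broken chromosomes are rejoined by end joining at any time or by homologous recombination, which copies the sister chromatid after replication, and the Fanconi anemia pathway frees strands that are linked to each other. Many of these genes are transcribed at higher levels in dividing cells, while others are kept at a steady level through the cell cycle.

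Promoter windows of RefSeq (assembly GRCr8, from 250 bases before to 50 bases after the start) were found for 25 of the 28 tested genes, 26 windows in all. They were searched on both strands for the E2F motif TTTCCCGC, TTTCGCGC, TTTGCCGC or TTTGGCGC, the CCAAT box CCAAT, and the cell cycle homology region TTTGAA or TTCGAA, motifs known from genes of the cell cycle. The parts of 5 windows that lie before the first annotated base of the gene are shown, for the genes that the results below turn on. Exo1, Pms2 and Fanca rose with passage, Nthl1 differed between donor ages at P30, and Mgmt fell at P30. Capitals mark a CCAAT box (ATTGG on the other strand) in Exo1, Pms2 and Fanca and the E2F motif TTTCGCGC in Nthl1, and the stretch of Mgmt holds none of the motifs. The stretches lie at chr13:90341768-90341946 (Exo1, plus strand), chr12:15814791-15814970 (Pms2, minus strand), chr19:68271081-68271269 (Fanca, minus strand), chr10:14160084-14160333 (Nthl1, plus strand) and chr1:201140582-201140831 (Mgmt, plus strand), and each is written 5′ to 3′ on the strand of its gene.
Exo1: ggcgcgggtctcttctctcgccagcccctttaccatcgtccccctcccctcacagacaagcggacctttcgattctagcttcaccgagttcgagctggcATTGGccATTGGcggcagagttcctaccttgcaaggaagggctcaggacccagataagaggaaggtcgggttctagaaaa
Pms2: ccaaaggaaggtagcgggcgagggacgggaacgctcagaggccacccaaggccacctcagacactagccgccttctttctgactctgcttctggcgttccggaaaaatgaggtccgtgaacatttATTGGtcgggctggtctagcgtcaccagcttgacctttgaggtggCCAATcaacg
Fanca: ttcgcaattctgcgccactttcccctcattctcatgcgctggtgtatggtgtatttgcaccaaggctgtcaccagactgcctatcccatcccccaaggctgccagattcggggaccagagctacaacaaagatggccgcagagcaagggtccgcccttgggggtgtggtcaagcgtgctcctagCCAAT
Nthl1: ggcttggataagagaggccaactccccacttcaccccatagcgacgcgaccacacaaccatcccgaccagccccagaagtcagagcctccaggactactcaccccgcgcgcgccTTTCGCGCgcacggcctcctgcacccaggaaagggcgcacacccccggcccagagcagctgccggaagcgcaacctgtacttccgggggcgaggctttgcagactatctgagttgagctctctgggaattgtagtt
Mgmt: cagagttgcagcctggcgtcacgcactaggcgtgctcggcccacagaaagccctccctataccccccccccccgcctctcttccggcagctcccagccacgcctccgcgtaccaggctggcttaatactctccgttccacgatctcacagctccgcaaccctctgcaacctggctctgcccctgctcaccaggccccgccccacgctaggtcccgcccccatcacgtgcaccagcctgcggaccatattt

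Over whole windows, 5 of 26 (19.2%) held an E2F motif, those of Bard1, Chek1, Fancl, Nthl1 and Ung, against 4.26% of 6030 windows of named genes tested and 2.14% of all 33469 windows. With the letters TTTCGCGC or TTTGGCGC alone, 1 of 26 windows (3.85%) held the motif, that of Nthl1, against 1.71% of the tested genes. A CCAAT box stood in 9 of 26 windows (34.6%, against 37.9% of tested genes), and the cell cycle homology region in 5 of 26 (19.2%, against 13.1%). Among the windows of genes that rose at P30 or P100, 8 of 14 held a CCAAT box and 2 of 14 an E2F motif, and among those of genes called at neither passage 1 of 11 and 3 of 11. Pms2 enters these counts with 2 overlapping windows that hold the same CCAAT boxes, so its boxes are counted again. A match describes the letters only and is no evidence of binding.

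The arrays of P2 differ from the later arrays in more than passage. Undetected probes had a median intensity between 31.3 and 34.7 at P2 and between 51.6 and 56.2 on the 12 later arrays, so passage and array background cannot be told apart. Of 6 surface markers of MSCs with a probe, Itgb1, Cd44, Thy1 and Alcam were detected in all 6 groups. Nt5e was detected in every group but yMSCs P100, with means of 8.75 in yMSCs P2 and 5.47 in yMSCs P100. Vcam1 was detected in aMSCs P100 alone. The pan-leukocyte gene Ptprc was detected in none of the groups. Among 16 macrophage markers with a probe, yMSCs P2 had 12 detected, aMSCs P2 had 6, and each later group had 1, Cd14. Correlations between arrays of a group went from 0.961 to 0.995, and the lowest were within aMSCs P30, aMSCs P100 and yMSCs P30. In yMSCs P30, replicate 1 read apart from the others for several repair genes, among them Mgmt, Parp1, Ddb1 and Nthl1. Weights that limma estimated for each array were lowest for aMSCs P100 replicate 1 (0.0097) and yMSCs P30 replicate 1 (0.17). The estimation of these weights did not fully converge. Values without an array are given beside the calls that rest on it.

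Of the 32 repair genes with a named probe, 24, 27 and 27 were detected in yMSCs at P2, P30 and P100, and 26, 26 and 28 in aMSCs. Over the whole array the number of detected genes was lower in the later groups, with 8590 and 8581 at P2 and 7477 to 8216 at P30 and P100. Fanca, a core protein of the Fanconi anemia complex, and Mutyh, the glycosylase that removes adenine opposite oxidized guanine, were detected in the 4 later groups and in neither group of P2. Bard1 was detected in every group but yMSCs P2, where its mean detection p was above 0.01. Xpc, the damage sensor of nucleotide excision repair, was detected in both P2 groups and in aMSCs P100.

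Repair genes as a group read higher at both late passages. Calls required a fold of at least 1.5 together with an adjusted p under 0.05 (limma, Benjamini-Hochberg over all 9531 genes). From P2 to P30, 12 of the 28 genes were called higher and 2 lower, against 34.9% of all tested genes called, 16.6% higher and 18.3% lower. The P30 and P2 arrays did not overlap for 16 genes, 14 of them higher at P30, against 30.2% of all tested genes. From P2 to P100, 14 were called higher and 1 lower, against 37.5% of all tested genes called, 18.9% higher and 18.6% lower. Here 13 genes did not overlap, 12 of them higher at P100, against 35.3% of all. The median log2 change of the 28 genes was 0.48 at P30 and 0.57 at P100, where the medians over all tested genes were 0.03 and 0.06. On the authors' normalized intensities the calls were 9 higher and 3 lower at P30 and 11 higher and 3 lower at P100, and without normalization between arrays 8 and 3, and 13 and 2. Those scalings moved the median of all genes to -0.11 and -0.13 at P30 and to -0.09 and -0.09 at P100. Under the fold limit at P100 on the authors' normalized intensities were Pms2 (0.44), Apex1 (0.54) and Xrcc1 (0.57), and with an offset of 50 Ung (0.56) and Mutyh (0.46). At P30 Pms2 (0.42), Xrcc1 (0.49) and Xrcc6 (0.45) were under it on the authors' normalized intensities. Without normalization between arrays Pms2 (0.47), Xrcc1 (0.51), Xrcc6 (0.49) and Mre11 (0.57) were under it at P30. Both comparisons share the P2 arrays. Fanca and Mutyh are among the genes called higher in both, and they passed the detection filter through the later groups alone. The filter thus favoured their direction, and these 2 genes are no support for a rise of the group.

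**Figure D1:**
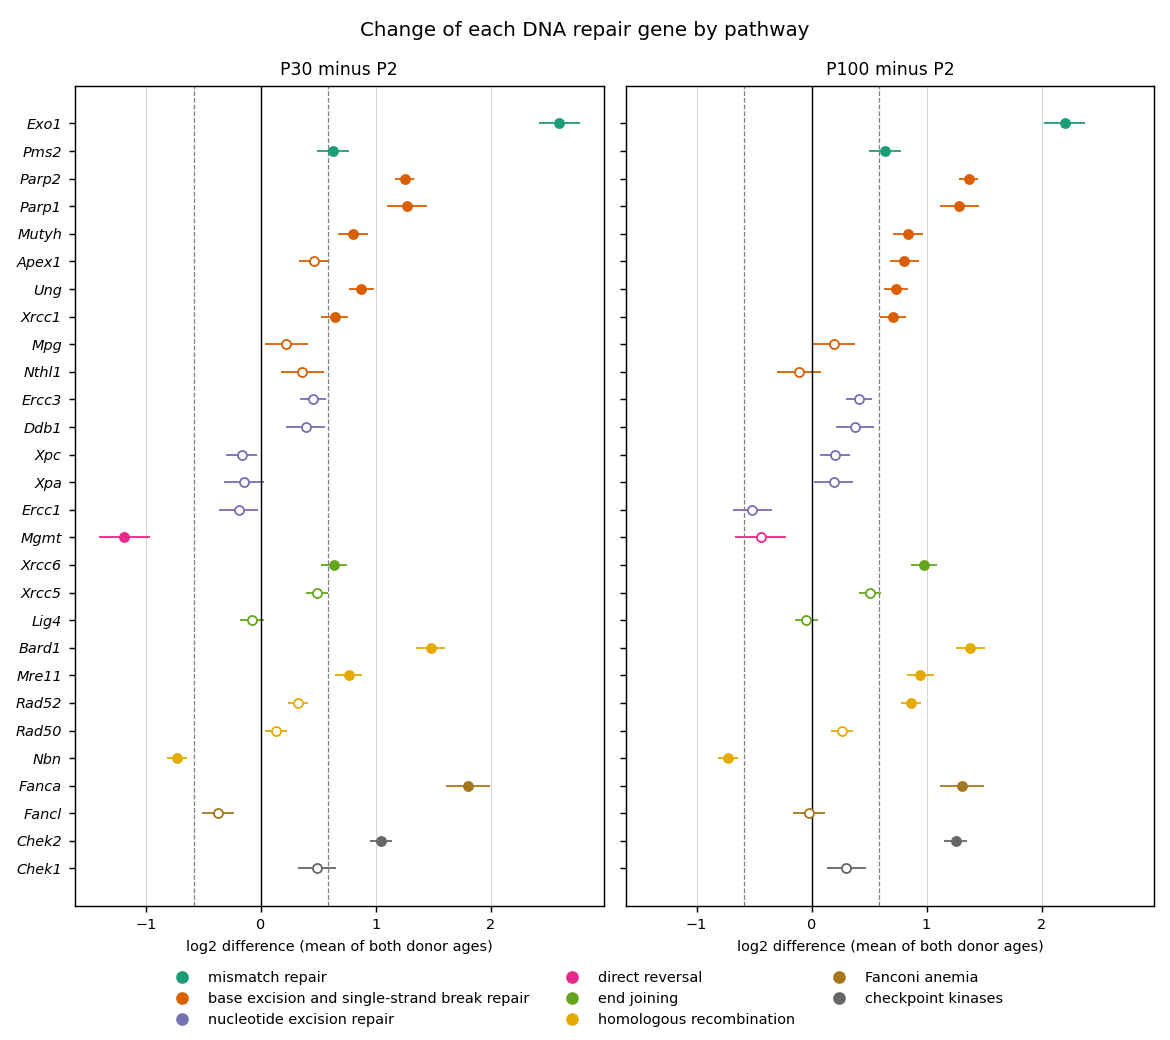
Log2 difference of each of the 28 tested repair genes between P30 and P2 (left) and P100 and P2 (right), as the mean of both donor ages (n = 6 against 6 arrays). Bars are standard errors of the fit, filled points are called genes, and dashed lines mark a fold of 1.5. Exo1 lies farthest to the right in both panels (2.60 and 2.20), and no open or filled point of nucleotide excision repair passes the dashed lines.

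By pathway, the counts of calls differed, though most pathways hold few tested genes. Over all tested genes 16.6% were called higher and 18.3% lower at P30, and 18.9% and 18.6% at P100. Both tested mismatch repair genes rose at P30 and at P100 (median 1.61 and 1.42). Of 8 base excision genes 5 rose at P30 and 6 at P100, and none fell (median 0.72 and 0.77). Of 5 recombination genes 2 rose and 1 fell at P30, and 3 rose and 1 fell at P100 (median 0.32 and 0.86). Of 3 end joining genes, of 2 Fanconi anemia genes and of 2 checkpoint kinases 1 each rose at both passages. None of 5 nucleotide excision genes was called by limma at either passage (median -0.15 and 0.20), while 2 at P30 and 3 at P100 had an unadjusted p under 0.05. Over the alternatives, 0 to 1 of these 5 was called at P30 and 0 to 2 at P100. Of the genes counted as higher, Mutyh (base excision) and Fanca passed the detection filter through the later groups alone. Whether pathways differed from each other was not tested.

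Mismatch repair gave the largest rise among the 28 genes. Exo1, the exonuclease that removes the strand holding the error, read 5.19, 5.54 and 5.93 in yMSCs P2 and 5.51, 4.94 and 5.38 in aMSCs P2. It read 8.47, 7.97 and 7.87 in yMSCs P30 and 7.71, 7.83 and 8.23 in aMSCs P30, and 7.95, 7.98 and 7.96 in yMSCs P100 and 6.98, 7.85 and 6.98 in aMSCs P100. Every later array lay above every P2 array, and in aMSCs P100 replicates 1 and 3 were the lowest of the later arrays. Exo1 rose by 2.60 at P30 (SE 0.18, adjusted p = 3.74e-09) and by 2.20 at P100 (SE 0.18, adjusted p = 1.54e-08), that is 6.05-fold and 4.6-fold. Pms2, an endonuclease that nicks the strand to be corrected, read 8.16, 8.35 and 8.60 in yMSCs P2 and 8.63, 8.53 and 8.23 in aMSCs P2, against 9.39, 8.91 and 9.12 in yMSCs P30 and 8.80, 8.78 and 9.28 in aMSCs P30. At P100 it read 9.33, 9.41 and 9.26 in yMSCs and 8.70, 9.16 and 8.47 in aMSCs, and in aMSCs P100 replicate 3 lay within the range of P2. Its rise of 0.63 at P30 (adjusted p = 8.63e-04) and 0.64 at P100 (adjusted p = 6.87e-04) was just above the fold limit. It fell under that limit at P30 without yMSCs P2 replicate 1, aMSCs P2 replicate 3, yMSCs P30 replicate 1 or aMSCs P30 replicate 3 (0.55 to 0.58), and at P100 without aMSCs P2 replicate 3 or aMSCs P100 replicate 2 (0.54 to 0.58). A second, dimmer Pms2 probe gave 0.73 and 0.52. Within donor ages the Pms2 rise was called in yMSCs at both passages (0.77 and 0.96) and in aMSCs at neither (0.49 and 0.31), and the difference between donor ages was not called (adjusted p = 0.55 and 0.135).

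Among the 8 tested base excision genes of the list, both enzymes that sense nicks changed most. Parp1, which marks broken strands with poly(ADP-ribose), read 9.14, 9.19 and 9.34 in yMSCs P2 and 9.11, 9.13 and 8.95 in aMSCs P2. At P30 it read 10.97, 9.92 and 10.03 in yMSCs and 10.42, 10.40 and 10.75 in aMSCs, and at P100 10.54, 10.37 and 10.57 in yMSCs and 10.29, 10.86 and 9.95 in aMSCs. All later arrays lay above all P2 arrays, and yMSCs P30 replicate 1 was the highest of them. Parp2, its close relative, read 8.00, 7.97 and 8.08 in yMSCs P2 and 7.97, 7.79 and 7.81 in aMSCs P2, and 9.04, 9.18 and 9.15 in yMSCs P30 and 9.24, 9.40 and 9.12 in aMSCs P30. Its P100 values were 9.34, 9.34 and 9.12 in yMSCs and 9.41, 9.25 and 9.35 in aMSCs, again with no overlap with P2. Parp1 rose by 1.27 at P30 (SE 0.17, adjusted p = 9.16e-06) and 1.29 at P100 (SE 0.17, adjusted p = 6.29e-06). The rise of Parp2 was 1.25 (SE 0.0822, adjusted p = 2.57e-09) and 1.37 (SE 0.0822, adjusted p = 4.14e-10). Xrcc1, the scaffold that gathers the enzymes of nick repair, read 7.62, 7.48 and 7.78 in yMSCs P2 and 7.52, 7.55 and 7.64 in aMSCs P2. At P30 the values were 7.99, 8.05 and 7.87 in yMSCs and 8.72, 8.73 and 8.09 in aMSCs, and at P100 8.32, 8.32 and 8.11 in yMSCs and 8.37, 8.55 and 8.15 in aMSCs. Every later array was higher, with aMSCs P30 replicates 1 and 2 highest. Xrcc1 rose by 0.64 at P30 (adjusted p = 1.59e-04) and by 0.71 at P100 (adjusted p = 5.50e-05), and without aMSCs P30 replicates 1 and 2 the change at P30 was 0.43, under the fold limit.

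Glycosylases start base excision repair by removing the damaged base, and not all of them were called. Ung, which removes uracil, read 6.64, 6.43 and 6.63 in yMSCs P2 and 6.22, 6.01 and 6.14 in aMSCs P2, 6.95, 7.12 and 7.15 in yMSCs P30 and 7.44, 7.53 and 7.12 in aMSCs P30. Values at P100 were 7.44, 7.57 and 7.16 in yMSCs and 6.72, 7.01 and 6.58 in aMSCs, where replicate 3 overlapped with yMSCs P2. It rose by 0.87 at P30 (SE 0.11, adjusted p = 3.20e-06) and 0.74 at P100 (SE 0.11, adjusted p = 1.59e-05). Mutyh read 4.88, 5.05 and 4.85 in yMSCs P2 and 4.94, 4.80 and 4.92 in aMSCs P2, near the background of the arrays. The later values were 5.30, 5.39 and 5.73 (yMSCs P30), 6.17, 6.02 and 5.65 (aMSCs P30), 5.87, 5.94 and 5.70 (yMSCs P100) and 6.09, 5.37 and 5.50 (aMSCs P100), all above P2. The measured rise of Mutyh was 0.80 at P30 (adjusted p = 5.28e-05) and 0.84 at P100 (adjusted p = 2.84e-05), and it was under the fold limit with an offset of 50 (0.44 and 0.46). In aMSCs, where no P2 array detected it, Mutyh was at least 1.91-fold higher at P30 (adjusted p = 1.68e-04) and at least 1.56-fold at P100 (adjusted p = 0.00236), a bound that sets the later mean against the lowest detected signal of each P2 array. Mpg, which removes alkylated purines, changed by 0.22 at P30 (adjusted p = 0.31) and 0.19 at P100 (adjusted p = 0.381) and was not called. Apex1, the endonuclease that cuts at the site left by a glycosylase, read 9.84, 9.55 and 9.77 in yMSCs P2 and 9.04, 9.00 and 9.25 in aMSCs P2, and 9.73, 10.29 and 10.19 in yMSCs P30 and 9.50, 9.59 and 9.94 in aMSCs P30. Values at P100 were 10.38, 10.30 and 10.50 in yMSCs and 10.29, 9.67 and 10.15 in aMSCs, where replicate 2 overlapped with yMSCs P2, and replicates 1 of yMSCs P30 and 1 and 2 of aMSCs P30 also lay in the range of P2. The change of 0.46 at P30 (adjusted p = 0.00506) was under the fold limit, and Apex1 rose by 0.81 at P100 (adjusted p = 4.17e-05).

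**Figure D2:**
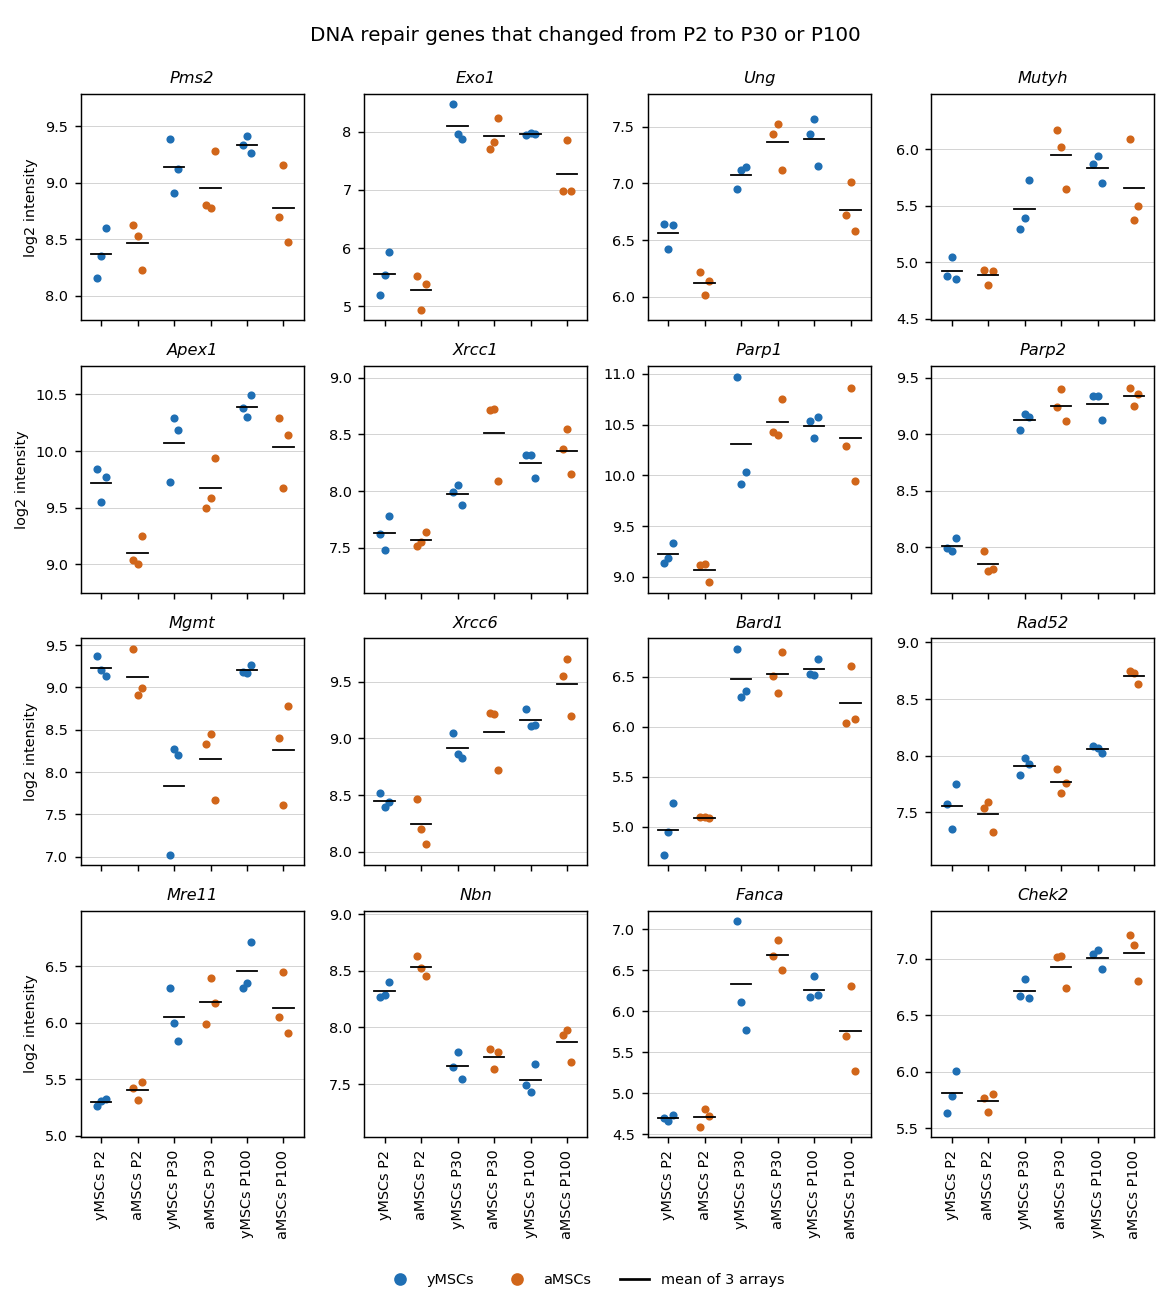
Log2 intensity of the 16 repair genes that were called at P30 or P100 against P2, with 1 point for each array (3 per group) and a line at the group mean, on vertical axes that differ between genes and do not start at 0. Nbn and Mgmt lie lower at P30 than at P2, the others lie higher at P30, P100 or both, and Mgmt is back at its P2 level in yMSCs P100 (9.17 to 9.26).

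Among genes that mend double-strand breaks by end joining, Xrcc6 (Ku70) and Xrcc5 (Ku80) form the ring that binds broken ends. Xrcc6 read 8.52, 8.39 and 8.44 in yMSCs P2 and 8.47, 8.20 and 8.07 in aMSCs P2. It read 9.05, 8.86 and 8.83 in yMSCs P30 and 9.23, 9.22 and 8.72 in aMSCs P30, and 9.26, 9.11 and 9.11 in yMSCs P100 and 9.55, 9.70 and 9.20 in aMSCs P100. No later array overlapped with P2, and aMSCs P100 held the highest values. Xrcc6 rose by 0.64 at P30 (SE 0.11, adjusted p = 1.57e-04) and by 0.98 at P100 (SE 0.11, adjusted p = 1.51e-06), and without aMSCs P30 replicates 1 and 2 the change at P30 was 0.47. Xrcc5 read 8.80, 8.90 and 9.11 in yMSCs P2, 9.19, 8.94 and 8.98 in aMSCs P2, 9.57, 9.26 and 9.42 in yMSCs P30 and 9.47, 9.62 and 9.52 in aMSCs P30. Values at P100 were 9.31, 9.42 and 9.42 in yMSCs and 9.57, 9.82 and 9.41 in aMSCs, above P2 on every array. Its changes of 0.49 (adjusted p = 3.29e-04) and 0.51 (adjusted p = 2.26e-04) passed the p-value limit and stayed under the fold limit. Lig4, the ligase that seals the ends, changed by -0.08 and -0.04 (adjusted p = 0.526 and 0.72).

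Genes of homologous recombination moved in both directions. Bard1, the partner of Brca1, read 4.72, 4.95 and 5.23 in yMSCs P2 and 5.09, 5.10 and 5.08 in aMSCs P2, 6.78, 6.30 and 6.36 in yMSCs P30 and 6.51, 6.34 and 6.75 in aMSCs P30. Its P100 values were 6.53, 6.52 and 6.68 in yMSCs and 6.04, 6.60 and 6.08 in aMSCs, and no later array overlapped with P2. Bard1 rose by 1.48 at P30 (SE 0.13, adjusted p = 5.20e-08) and 1.38 at P100 (SE 0.13, adjusted p = 7.86e-08). In yMSCs P2 only 1 of 3 arrays detected Bard1, and with an offset of 50 its changes were 0.91 and 0.84. The Mre11, Rad50 and Nbn proteins form the complex that first binds a broken end, and their mRNAs parted. Mre11, the nuclease, read 5.26, 5.31 and 5.32 in yMSCs P2, 5.42, 5.31 and 5.48 in aMSCs P2, 6.31, 6.00 and 5.84 in yMSCs P30 and 5.99, 6.39 and 6.17 in aMSCs P30. It read 6.31, 6.35 and 6.72 in yMSCs P100 and 6.05, 6.45 and 5.91 in aMSCs P100, all above P2. Nbn, the adaptor that brings the complex to Atm, read 8.27, 8.29 and 8.40 in yMSCs P2, 8.63, 8.52 and 8.46 in aMSCs P2, 7.65, 7.79 and 7.54 in yMSCs P30 and 7.81, 7.64 and 7.78 in aMSCs P30. At P100 Nbn read 7.49, 7.43 and 7.68 in yMSCs and 7.94, 7.98 and 7.69 in aMSCs, and every later array lay below every P2 array. Mre11 rose by 0.77 (adjusted p = 3.43e-05) and 0.95 (adjusted p = 2.88e-06), Nbn fell by 0.73 (SE 0.0858, adjusted p = 2.18e-06) and 0.73 (SE 0.0858, adjusted p = 1.63e-06), and Rad50 changed by 0.13 and 0.27 (adjusted p = 0.236 and 0.0214) under the fold limit. With an offset of 50 the change of Mre11 at P30 was 0.47. The opposite changes of Mre11 and Nbn were called within yMSCs (0.75 and -0.66 at P30, 1.16 and -0.79 at P100) and within aMSCs (0.78 and -0.80, then 0.73 and -0.67). In aMSCs at P100 they were under the fold limit without replicate 2 for Mre11 (0.57) and without replicate 3 for Nbn (-0.58).

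Rad52, which anneals single strands in recombination, had its highest values in aMSCs P100. It read 7.57, 7.35 and 7.75 in yMSCs P2, 7.53, 7.59 and 7.32 in aMSCs P2, 7.83, 7.98 and 7.93 in yMSCs P30 and 7.88, 7.67 and 7.76 in aMSCs P30. Its P100 values were 8.08, 8.06 and 8.02 in yMSCs and 8.75, 8.73 and 8.63 in aMSCs, without overlap between the donor ages or with P2. Rad52 was not called at P30 (0.32, adjusted p = 0.00433, under the fold limit) and rose by 0.86 at P100 (SE 0.0869, adjusted p = 2.67e-07). Within donor ages the change at P100 was 1.22 in aMSCs and 0.50 in yMSCs, where it stayed under the fold limit. The change in aMSCs exceeded that in yMSCs by 0.72 (SE 0.17, adjusted p = 0.00892), and with array weights by 0.49 (adjusted p = 0.0821).

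In the Fanconi anemia pathway Fanca rose and Fancl was not called. Fanca read 4.70, 4.66 and 4.74 in yMSCs P2 and 4.59, 4.80 and 4.72 in aMSCs P2, where no array detected it. It read 7.10, 6.11 and 5.77 in yMSCs P30 and 6.68, 6.87 and 6.50 in aMSCs P30, and 6.17, 6.43 and 6.20 in yMSCs P100 and 5.70, 6.31 and 5.27 in aMSCs P100, with replicate 3 of aMSCs P100 the lowest of the later arrays. Fanca was thus at least 2.81-fold higher at P30 (adjusted p = 7.59e-07) and at least 2.00-fold higher at P100 (adjusted p = 1.91e-05). Fancl, the ubiquitin ligase of the pathway, read 5.98, 6.53 and 6.57 in yMSCs P2, 6.44, 6.51 and 6.30 in aMSCs P2, 5.55, 6.04 and 5.70 in yMSCs P30 and 6.43, 6.18 and 6.19 in aMSCs P30. Values at P100 were 6.21, 6.31 and 6.11 in yMSCs and 6.60, 6.12 and 6.85 in aMSCs, and all but replicates 1 and 3 of aMSCs, which were higher, lay within the range of P2. Its change was -0.37 at P30 (adjusted p = 0.026) and -0.02 at P100 (adjusted p = 0.898). In yMSCs alone Fancl fell by 0.60 at P30 (adjusted p = 0.0191), and this call was lost without yMSCs P2 replicate 2 or 3 or yMSCs P30 replicate 1 or 3 (-0.56 to -0.49, adjusted p = 0.0547 to 0.0809).

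The checkpoint kinases pass the damage signal on to the cell cycle. Chek2, which acts after double-strand breaks, read 5.64, 5.79 and 6.00 in yMSCs P2, 5.77, 5.64 and 5.81 in aMSCs P2, 6.67, 6.82 and 6.65 in yMSCs P30 and 7.02, 7.03 and 6.74 in aMSCs P30. At P100 it read 7.04, 7.08 and 6.90 in yMSCs and 7.21, 7.12 and 6.81 in aMSCs, and no later array overlapped with P2. Chek2 rose by 1.04 at P30 (SE 0.0976, adjusted p = 1.57e-07) and 1.25 at P100 (SE 0.0976, adjusted p = 1.13e-08). Chek1, which acts on stalled replication forks, read 5.79, 5.35 and 5.63 in yMSCs P2, 5.72, 5.55 and 5.47 in aMSCs P2, 5.42, 6.28 and 6.30 in yMSCs P30 and 5.93, 6.25 and 6.25 in aMSCs P30. Values at P100 were 5.77, 6.20 and 5.96 in yMSCs and 5.69, 5.42 and 6.29 in aMSCs, overlapping with P2. It was not called (0.49, adjusted p = 0.0191 at P30, and 0.30, adjusted p = 0.127 at P100). At P30 yMSCs replicate 1 was the lowest array for Chek1, and without it the gene was called.

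Mgmt, the protein that takes methyl groups directly off guanine, was the only tested gene of direct reversal on the list. It read 9.37, 9.21 and 9.13 in yMSCs P2 and 9.46, 8.92 and 9.00 in aMSCs P2, and 7.03, 8.27 and 8.20 in yMSCs P30 and 8.33, 8.45 and 7.67 in aMSCs P30, all below P2. At P100 it read 9.19, 9.17 and 9.26 in yMSCs, in the range of P2, and 8.40, 7.62 and 8.78 in aMSCs, below it. Mgmt fell by 1.19 at P30 (SE 0.22, adjusted p = 2.33e-04) and was not called at P100 (-0.44, adjusted p = 0.0926). Between P30 and P100 it was the 1 called gene of the 28, with a rise of 0.74 (SE 0.22, adjusted p = 0.0218), against 12% of all tested genes called, 6.47% higher. Over both donor ages Mgmt overlapped between these passages. The 1 gene that did not overlap was Rad52, which was not called, against 4.65% of all. The rise of Mgmt was 1.38 in yMSCs (adjusted p = 0.00809), where Mgmt was again the 1 gene called, against 7.87% of all, 3.37% higher and 4.5% lower (10 genes did not overlap, against 29.3%), and the change was 0.11 in aMSCs. The combined rise fell under the fold limit without yMSCs P30 replicate 1 (0.54) and was 0.71 and 0.62 without aMSCs P100 replicate 1 or 3, with adjusted p = 0.0509 and 0.0568. In aMSCs P30 the fall from P2 (-0.97, adjusted p = 0.0166) was lost without aMSCs P2 replicate 1 or aMSCs P30 replicate 3 (-0.80 and -0.73, adjusted p = 0.074 and 0.0758).

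Nucleotide excision repair genes had no call in the combined comparisons. Ddb1, part of the complex that reads ultraviolet damage, changed by 0.39 and 0.38 (adjusted p = 0.0514 and 0.0586), and Ercc3, a helicase that opens the strands, by 0.46 and 0.41 (adjusted p = 0.00235 and 0.00463), under the fold limit. Xpa, which verifies the lesion, changed by -0.15 and 0.19 (adjusted p = 0.475 and 0.341). Xpc changed by -0.17 and 0.20 (adjusted p = 0.289 and 0.193) and Ercc1, which with Ercc4 cuts on the 5′ side of the lesion, by -0.19 and -0.52 (adjusted p = 0.342 and 0.0148). Of these, Ercc1 at P100 was called on the authors' normalized intensities, without normalization between arrays and without aMSCs P100 replicate 1. In yMSCs alone Ddb1 rose by 0.78 at P100 (adjusted p = 0.0114), a call that was lost on the authors' normalized intensities (0.52, adjusted p = 0.124) and without normalization between arrays (0.50, adjusted p = 0.0864). In aMSCs alone Ercc1 fell by 1.13 (adjusted p = 0.00107).

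**Figure D3:**
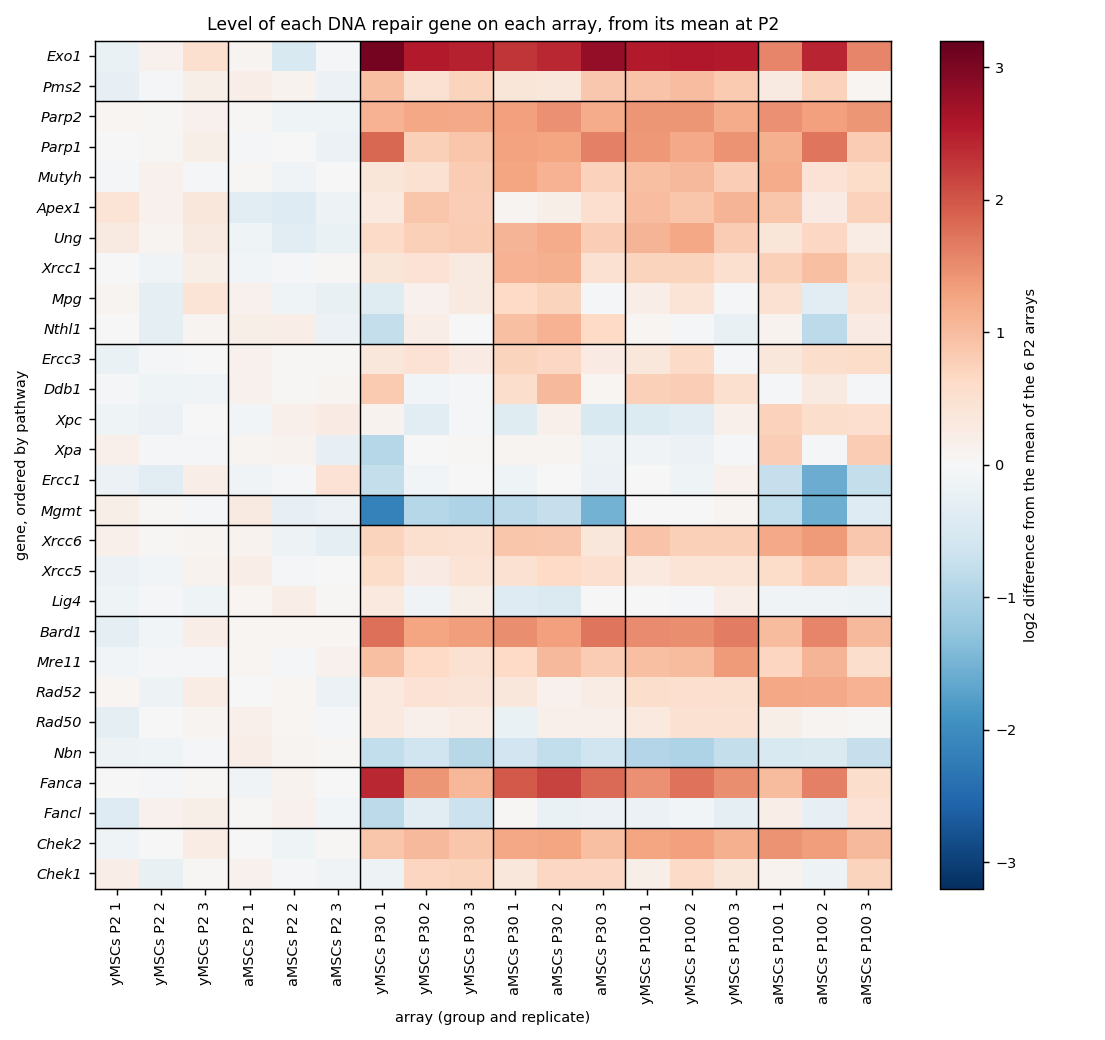
Level of the 28 tested repair genes on each of the 18 arrays, as the log2 difference from the mean of the 6 P2 arrays, with genes ordered by pathway (black horizontal lines) and arrays by group (black vertical lines). The median difference over the genes was 0.38 to 0.69 on the 12 later arrays, and between 19 and 24 of the 28 genes lay above their P2 mean on each of them.

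Within each donor age the changes were similar in number. In yMSCs 8 genes rose and 3 fell at P30, against 32.7% of all tested genes called, 16.4% in each direction, and 18 did not overlap, against 52.8%. At P100 in yMSCs 14 rose and 1 fell, against 39.3% called, 20.6% higher and 18.7% lower, and 18 did not overlap, against 68.8%. Without normalization between arrays 9 rose and 1 fell there, where 1169 of all tested genes were higher and 2443 lower, and on the authors' normalized intensities 11 rose and 1 fell. In aMSCs 12 rose and 2 fell at P30, against 39.3% called, 19.3% higher and 20% lower, and 21 did not overlap, against 62.2%. At P100 in aMSCs 13 rose and 3 fell, against 37.7% called, 19.1% higher and 18.6% lower, and 20 did not overlap, against 58.9%. The donor ages share no arrays. At P30, 9 genes were called in the same direction in both, 81.8% of those called in yMSCs and 64.3% of those in aMSCs, and at P100 13 genes, 86.7% and 81.2%. The same shares over all tested genes were not counted, so it cannot be said whether this agreement is particular to repair genes. Exo1, Parp1, Parp2, Bard1, Mre11, Fanca and Chek2 rose and Nbn fell in both donor ages at both passages. With an offset of 50 the changes of Fanca (0.57) and Mre11 (0.45) in aMSCs P100, of Mre11 in aMSCs P30 (0.49) and yMSCs P30 (0.45) and of Nbn in yMSCs P30 (-0.58) were under the fold limit. In aMSCs P30 Mre11 changed by 0.58 with cyclic loess and by 0.49 without normalization between arrays (adjusted p = 0.0606). Calls in 1 donor age at P100 were Pms2 and Ddb1 in yMSCs and Ercc1, Mgmt and Rad52 in aMSCs. Among these, the difference between the donor ages was called for Ercc1 and Rad52. The fall of Mgmt in aMSCs P100 (-0.86, adjusted p = 0.0325) was lost without any 1 of aMSCs P2 replicates 1 and 3 and aMSCs P100 replicates 1 and 2, down to -0.53 (adjusted p = 0.177) without the last. Under the fold limit on leaving out 1 array were Mutyh (0.55, replicate 1) and Ung (0.53, replicate 2) in aMSCs P100, and Xrcc1 in yMSCs at P100 (0.55, yMSCs P2 replicate 2).

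From P30 to P100 in aMSCs, 6 of 28 genes were called, 2 higher and 4 lower, against 26.3% of all tested genes, 14.2% higher and 12.1% lower, and 6 did not overlap, against 40.7% (without normalization between arrays 3 higher and 2 lower). Rad52 rose by 0.93 (adjusted p = 2.05e-05) and Xpc by 0.84 (adjusted p = 0.00251). Only 1 of 3 arrays of aMSCs P30 detected Xpc, and its difference was 0.48 with an offset of 50, under the fold limit, and 0.47 with array weights (adjusted p = 0.232). Nthl1 fell by 1.06 (adjusted p = 0.00647), Ercc1 by 0.92 (adjusted p = 0.00754), Fanca by 0.92 (adjusted p = 0.0156) and Ung by 0.59 (adjusted p = 0.00628). Without aMSCs P30 replicates 1 and 2, a fit in which the lone remaining array is assumed to vary like the other groups, the differences were -0.78 for Nthl1, -0.84 for Ercc1, -0.74 for Fanca and -0.35 for Ung, with adjusted p = 0.2, 0.127, 0.235 and 0.281. The Fanca call was also lost without aMSCs P30 replicate 2 (-0.83, adjusted p = 0.0634) or aMSCs P100 replicate 3 (-0.68, adjusted p = 0.0739), and Ung fell under the fold limit without any 1 of 4 arrays of both groups (-0.57 to -0.50).

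Donor age made no difference that passed the test at P2. With limma 0 of 28 genes were called between aMSCs and yMSCs, against 4.05% of all tested genes, 1.77% higher and 2.28% lower, and 2 had an unadjusted p under 0.05. Values did not overlap for 7 genes, against 24.3% of all. Apex1 was lower in aMSCs P2 by 0.62 (adjusted p = 0.0663), with every aMSCs array below every yMSCs array, and it was called in 4 of the alternative settings and without yMSCs P30 replicate 1, aMSCs P30 replicate 3 or aMSCs P100 replicate 2. At P30, 1 gene was called, higher in aMSCs, against 17.6% of all, 8.13% higher and 9.51% lower, and 3 did not overlap, against 29.4%. Nthl1, the glycosylase for oxidized pyrimidines, read 6.48, 7.43 and 7.23 in yMSCs P30 and 8.19, 8.35 and 7.85 in aMSCs P30, with no overlap. At P2 it read 7.22, 6.94 and 7.32 in yMSCs and 7.41, 7.44 and 7.03 in aMSCs, and at P100 7.30, 7.18 and 6.98 in yMSCs and 7.35, 6.39 and 7.49 in aMSCs. Nthl1 was higher in aMSCs P30 by 1.09 (SE 0.27, adjusted p = 0.00858), and without aMSCs P30 replicates 1 and 2, with the spread taken from the other groups, by 0.81 (adjusted p = 0.336). In a fit to the compared groups alone its adjusted p was 0.061. The change of Nthl1 from P2 to P30 in aMSCs (0.84, adjusted p = 0.0159) was lost without aMSCs P2 replicate 3 or aMSCs P30 replicate 2 (0.71 and 0.73, adjusted p = 0.0679 and 0.0656).

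At P100, 5 of 28 repair genes were called between donor ages, 2 higher and 3 lower in aMSCs, against 19% of all tested genes, 10% higher and 9.02% lower, and 12 did not overlap, against 43.5%. Without yMSCs P30 replicate 1, which enters the shared spread, 8 were called, without yMSCs P100 replicate 2 there were 3, and without normalization between arrays 3 were higher and 1 lower. Rad52 was higher in aMSCs by 0.65 (SE 0.12, adjusted p = 9.20e-04). Xpc read 4.88, 4.98 and 5.46 in yMSCs P100 and 6.05, 5.87 and 5.85 in aMSCs P100, with no overlap, and was higher by 0.81 (SE 0.19, adjusted p = 0.00418). In the other groups Xpc read 5.17, 5.14 and 5.29 (yMSCs P2), 5.23, 5.47 and 5.57 (aMSCs P2), 5.44, 4.96 and 5.24 (yMSCs P30) and 4.92, 5.49 and 4.83 (aMSCs P30), low values that overlap. In yMSCs P100 only 1 of 3 arrays detected Xpc, and the difference was 0.46 with an offset of 50, under the fold limit, and had an adjusted p of 0.079 with array weights.

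Ercc1 read 7.93, 7.79 and 8.07 in yMSCs P100 and 7.19, 6.35 and 7.18 in aMSCs P100, and replicate 2 of aMSCs was the lowest. At P2 it read 7.75, 7.60 and 8.14 in yMSCs and 7.82, 7.88 and 8.40 in aMSCs, and at P30 7.17, 7.83 and 7.95 in yMSCs and 7.80, 7.93 and 7.75 in aMSCs. The groups at P100 did not overlap, and Ercc1 was lower in aMSCs by 2.03-fold (log2 difference -1.02, SE 0.24, adjusted p = 0.00499). Ung was lower in aMSCs P100 by a log2 difference of -0.62 (SE 0.15, adjusted p = 0.00619), and under the fold limit without yMSCs P100 replicate 2 or aMSCs P100 replicate 3 (-0.53 and -0.52). The Ung call was also lost without normalization between arrays (-0.43, adjusted p = 0.0713) and with an offset of 50 (-0.49, under the fold limit). Mgmt was lower in aMSCs P100 with a log2 difference of -0.94 (SE 0.31, adjusted p = 0.0378). The Mgmt call was lost without any 1 of yMSCs P100 replicates 1, 2 and 3 and aMSCs P100 replicates 1 and 2, and was weakest without aMSCs P100 replicate 2 (-0.62, adjusted p = 0.193). It was also lost with array weights (adjusted p = 0.101), without normalization between arrays (0.0816) and with a floor in place of normexp (0.0511). The same held without a detection filter (adjusted p = 0.0959) and with a replicate block (0.0551).

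**Figure D4:**
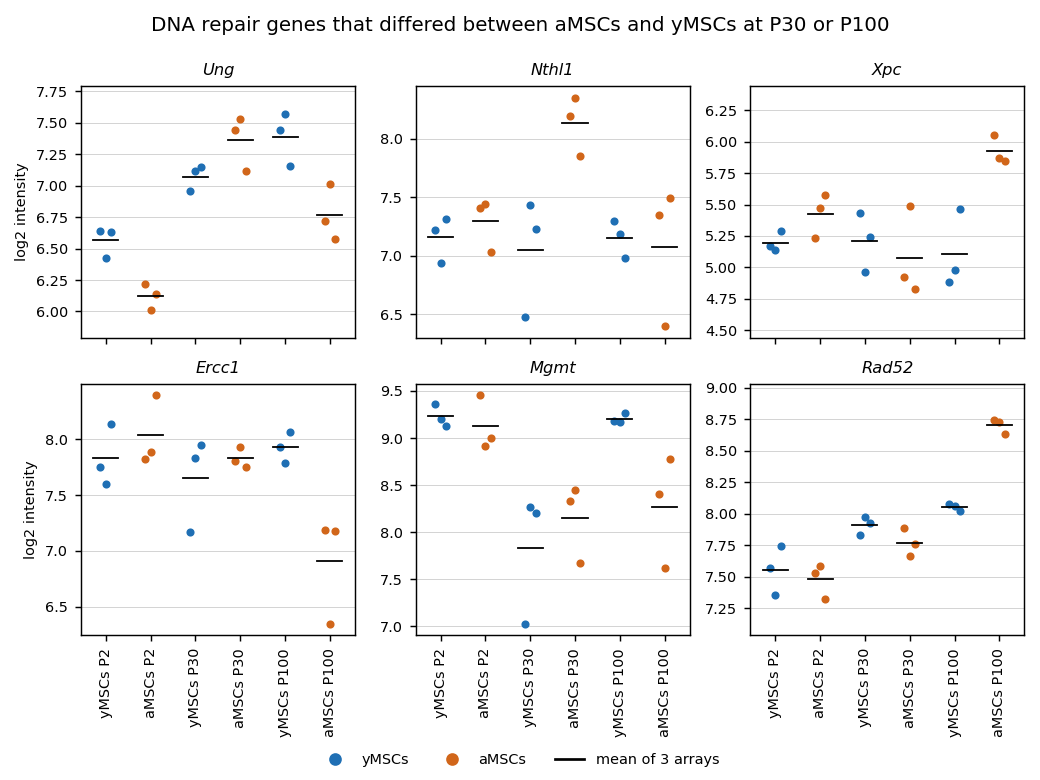
Log2 intensity of the 6 repair genes called between aMSCs and yMSCs at P30 or P100, with 1 point for each array (3 per group) and a line at the group mean, on vertical axes that differ between genes and do not start at 0. Rad52 and Xpc lie highest in aMSCs P100, Ercc1 lies lowest there, and Nthl1 lies highest in aMSCs P30.

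A difference between donor ages in the change with passage itself was called for 3 genes. At P30 this held for 1 of 28 genes, against 11.8% of all tested genes, 5.81% higher and 5.97% lower. Ung rose by 1.24 in aMSCs and changed by 0.51 in yMSCs, under the fold limit, and the difference was 0.73 (SE 0.21, adjusted p = 0.0339). That call was lost on leaving out any 1 of 7 arrays (0.65 to 0.74, adjusted p = 0.0553 to 0.097), namely yMSCs P2 replicates 1 and 3, aMSCs P2 replicates 2 and 3, yMSCs P30 replicate 1 and aMSCs P30 replicates 1 and 2. It was also lost without normalization between arrays (0.71, adjusted p = 0.0594) and with an offset of 50 (0.55, under the fold limit). At P100 such a difference was called for 2 of 28, against 13.8% of all, 8.16% higher and 5.59% lower. Rad52 rose more in aMSCs, as given above. Ercc1 fell by 1.13 in aMSCs and changed by 0.10 in yMSCs, a difference of -1.23 (SE 0.34, adjusted p = 0.0225), which was lost on leaving out any 1 of 4 arrays (-1.19 to -1.05, adjusted p = 0.0515 to 0.0635), namely yMSCs P2 replicates 1 and 2, aMSCs P2 replicate 3 and yMSCs P100 replicate 3. The Ercc1 call was also lost without normalization between arrays (-1.03, adjusted p = 0.0514) and without a detection filter (adjusted p = 0.0567).

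Repair genes beyond the 49 were counted in the same way. Of 97 further repair genes 69 had a named probe and 47 were tested, of which 16 rose and 2 fell at P30 and 17 rose and 2 fell at P100 (median 0.30 and 0.32), against 16.6% of all tested genes higher and 18.3% lower at P30 and 18.9% and 18.6% at P100. In base excision repair 5 of 8 rose at both passages and none fell, with the largest rise for Lig1, the ligase of replication and long-patch repair (2.28 and 2.22, SE 0.16). In the Fanconi anemia pathway 4 of 5 rose at P30 and 3 of 5 at P100, with Fancb, a partner of Fancl in the core complex, rising most at P100 (1.51, SE 0.14). In nucleotide excision repair 3 of 9 rose and 1 fell at each passage. Gtf2h4 (1.16) rose most and Gtf2h5 (-0.77) fell at P100, both subunits of the factor TFIIH that opens the strands. H2ax, the histone phosphorylated at breaks, rose most among 6 checkpoint genes (1.77, SE 0.14), of which 1 rose at P30 and 2 at P100. Gen1, a resolvase, was the 1 of 7 recombination genes that rose at both passages (0.66 at P100), and Poll, a polymerase of end joining, the 1 of 3 end joining genes that rose at P100 (1.17). Among 5 translesion genes Rev3l, the catalytic subunit of polymerase zeta, rose most of 2 (1.15). Of 3 further direct reversal genes Alkbh3, an alkyl demethylase, fell (-0.72), and the 1 further mismatch repair gene was not called.

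Markers of dividing cells moved in the same comparisons. Of 23 tested genes of replication and mitosis 21 rose at P30 and 22 at P100, with medians of 1.71 and 1.70, and none fell. Over all tested genes 16.6% were higher at P30 and 18.9% at P100. Cdt1 was detected in neither P2 group and passed the detection filter through later groups alone, so the filter favoured its direction. The summed level of the replication and mitosis genes on the linear scale, over 24 genes on the array, was 5588 to 8782 in yMSCs P2 and 5688 to 6905 in aMSCs P2. In yMSCs it was between 19441 and 20597 at P30 and between 22310 and 23036 at P100, and in aMSCs it was 15457 to 22138 and 13354 to 17165. At P100, 11 of the 23 were lower in aMSCs than in yMSCs and none higher, against 9.02% and 10% of all tested genes. These are the same arrays in which Ung, Ercc1 and Mgmt read lower and Rad52 and Xpc higher. Ccnb1 was not detected in any group. Of 12 tested macrophage markers 12 were lower at P30 and 11 at P100, against 18.3% and 18.6% of all tested genes. All but Cd14 passed the detection filter through P2 groups alone, so the filter favoured their direction. Cd14 read 8.98 in yMSCs P2 and 8.38 in aMSCs P2, and 9.06 and 8.71 at P100. The summed level of the macrophage markers was 1865 to 4716 in yMSCs P2, 861 to 2019 in aMSCs P2 and 214 to 624 in the later groups. Ptprc, Itgam, Cd163 and Spi1 were not detected in any group. Of 4 endothelial markers none was detected. Of 6 tested surface markers of MSCs 4 fell at P30, against 18.3% of all tested genes. At P100 1 rose and 4 fell, against 18.9% and 18.6% of all. The marker that rose was Vcam1, which passed the detection filter through aMSCs P100 alone. In yMSCs Vcam1 was not detected and read 4.94 at P2 and 4.57 at P100. The part of these markers in the changes of repair genes was not tested, and in bulk RNA fewer cells of a type and less RNA per cell cannot be told apart.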

How the data were processed

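RNA of 18 samples was hybridized to Illumina RatRef-12 BeadChips of 22226 probes. The authors deposited 1 scanner intensity per probe and array, without normalization, and beside it a detection p-value, which compares the probe with negative control beads and comes in steps of 1 in 825. A second deposited table holds intensities after background subtraction and rank-invariant normalization by the authors, and the submitters' processing notes name BeadStudio 3. The genome build of the annotation is not given in the sources used here. Precision is limited by the number of arrays, 3 per group, and by signal over background: detected probes had a median 6.07 to 7.14 times that of undetected probes at P2 and 4.19 to 5.14 times later.

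The deposited scanner intensities were turned into log2 values with neqc of limma 3.58.1 in R 4.3.3 (normexp by detection p, offset 16, quantile normalization). A gene was represented by its brightest probe, with symbols updated through gene IDs (Mre11a is given as Mre11), and 70 probes that could not be paired between both deposited tables kept no name. Genes with a mean detection p of at most 0.01 in at least 1 group were tested with 6 group means (12 residual, 4.51 prior degrees of freedom), in 14 comparisons, with Benjamini-Hochberg adjustment over 9531 genes. The procedure was tested on simulated data. No fold is given where both groups lack detection, and "at least" marks a bound against a group with no array that detected the gene.

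Groups came from the sample labels. Replicate numbers did not pair arrays. The members and gene lists, the comparisons and the rule for named genes were chosen with earlier results of these data known. By that rule all 49 genes are accounted for, and array values are given for members called between passages (both donor ages together), between donor ages or in their interaction, and for the brightest members of pathways with fewer than 2 such genes. Of the other repair genes, the called genes of largest rise and fall at P100 are named by pathway. The promoters printed were chosen after the values were seen. Alternatives were the authors' normalized values, cyclic loess, no normalization, a floor in place of normexp, an offset of 50, other detection filters, the mean of probes, fits to the compared groups alone, array weights, a replicate block, thresholds of fold 2 or p alone, each array left out, and aMSCs P30 replicates 1 and 2 left out together.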

Additional observations from a re-analysis of the deposited data

Results flagged for a closer look

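The change with passage differed between aMSCs and yMSCs for 3 repair genes, each by an interaction term in limma (adjusted over 9531 genes, 3 arrays per group). That is 1 of 28 for the change to P30, against 11.8% of all tested genes. For the change to P100 it is 2 of 28, against 13.8%, so repair genes were not called more often than the tested genes at large. From P2 to P30 Ung changed more in aMSCs, by 0.73 on the log2 scale (SE 0.21, adjusted p = 0.0339). From P2 to P100 Ercc1 fell in aMSCs and changed by 0.10 in yMSCs, a difference of -1.23 (SE 0.34, adjusted p = 0.0225). From P2 to P100 Rad52 rose more in aMSCs, by 0.72 (SE 0.17, adjusted p = 0.00892). The call for Rad52 held on leaving out each array in turn and was lost with array weights, while those of Ung and Ercc1 were lost on leaving out any 1 of 7 and of 4 arrays.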

How the results depend on the processing

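No called result changed sign under any alternative run. With a fold of at least 2, 7 repair genes were called for P30 against P2, 6 for P100 against P2, 0 for P100 against P30, 6 and 7 in yMSCs at P30 and P100 against P2, 8 and 9 in aMSCs, 1 in aMSCs from P30 to P100, 1 between donor ages at P100, and 0 and 1 for donor age by change to P30 and P100. By adjusted p alone 17 were called in yMSCs P30 against P2, 3 for P100 against P30 and 3 between donor ages at P30. Fits to the compared groups alone gave 0 for P100 against P30, 3 in aMSCs P100 against P30, 1 between donor ages at P2 and 0 at P30. Array weights, whose estimation did not fully converge, gave 1 and 5 between donor ages at P2 and P30, 2 in yMSCs P100 against P30 and 7 for donor age by change to P30. Between donor ages at P2 the authors' normalized intensities and cyclic loess gave 1 each. Without a detection filter there were 0 for P100 against P30 and 1 for donor age by change to P100. Without normalization there were 2 between donor ages at P30, and 0 and 1 for donor age by change to P30 and P100. An offset of 50 gave 3 between donor ages at P100 and 0 for donor age by change to P30, where cyclic loess and the floor gave 2 each. Without aMSCs P30 replicates 1 and 2, 3 genes were called in aMSCs P100 against P30, 0 between donor ages at P30 and 0 for donor age by change to P30.

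Leaving out each array in turn gave 13 to 14 calls for P30 against P2, 14 to 16 for P100 against P2 and 0 to 2 for P100 against P30. Ranges were 10 to 12, 14 to 16 and 1 to 2 in yMSCs and 13 to 16, 14 to 16 and 4 to 8 in aMSCs for the same comparisons. They were 0 to 1, 1 to 3 and 3 to 8 between donor ages at P2, P30 and P100, and 0 to 3 and 1 to 4 for donor age by change to P30 and P100. With the replicate number as a block 14 genes were called at P30 and 15 at P100 against P2, and 4 in place of 5 between donor ages at P100, where Mgmt was lost. Same-numbered arrays did not deviate together (correlations -0.72 to 0.57, median -0.01), and 4 of 18 arrays correlated best with their own number. Over single genes, 1196 of 1416 values outside the left-out arrays kept their side of the threshold, 90 passed it and 130 no longer did. The background of the arrays limits low genes such as Fanca, Mutyh, Bard1 and Xpc.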
